A study of Homo sapiens with 6 samples.

Results

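The MAP kinase phosphatase genes of the DUSP family were described in U2OS cells in which the long noncoding RNA LINC00673 was to be depleted. The group holds 10 genes taken by symbol, DUSP1, DUSP2, DUSP4, DUSP5, DUSP6, DUSP7, DUSP8, DUSP9, DUSP10 and DUSP16, out of 50550 rows of the gene table. All 10 passed the filter on low counts, as did 21933 rows in all. The genes were selected on the measured counts of this same comparison between Lv_LINC00673 and Lv_NC, whose outcome was already known. Their own differences are therefore given as a description. The calls and intervals printed for them come from the fit over the whole table and are no independent evidence of a difference.

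RNA was sequenced from 6 libraries of U2OS, an established human osteosarcoma cell line. Of these, 3 libraries are titled Lv_LINC00673 and carry the genotype label LINC00673, and 3 are titled Lv_NC and carry the genotype label NC. The design text names LINC00673 knockdown derivatives and wild-type cells. The labels do not spell out NC, so that Lv_NC may not be a vector control, and no label tells whether replicate libraries stem from separate cultures or clones. A p-value here reflects library-to-library spread alone, and that spread may be technical.

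Mitogen-activated protein (MAP) kinases are switched on by phosphorylation of a threonine and a tyrosine in their activation loop, and the DUSP MAP kinase phosphatases switch them off by removing both phosphates. Several of these phosphatase genes are themselves induced by the kinases they act on, which makes them negative feedback regulators. They are commonly divided into inducible nuclear enzymes (DUSP1, DUSP2, DUSP4, DUSP5), cytoplasmic enzymes that prefer ERK (DUSP6, DUSP7, DUSP9) and enzymes that prefer the stress kinases JNK and p38 (DUSP8, DUSP10, DUSP16).

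Total counts were 61815841 to 71237493 per Lv_LINC00673 library and 76814723 to 87227980 per Lv_NC library. LINC00673 itself averaged 6.38 ± 0.159 CPM in Lv_LINC00673 and 8.50 ± 1.24 CPM in Lv_NC (CPM, read counts scaled to a common library size after TMM normalization; SD, n = 3 each). Its log2 fold change was -0.41 (SE 0.16) and was not called by edgeR's quasi-likelihood test (adjusted p = 0.0924), whereas DESeq2 called it (adjusted p = 0.0429). Group names are therefore used below as the titles of the libraries. Across 11825 genes, which are not independent replicates, the log2 fold change fell with GC content (Spearman's rho -0.50) and grew with transcript length (rho 0.44), and values corrected by a GC and length offset are given as well. Of 7 mesenchymal and bone markers, 5 had at least 1 FPKM on average (VIM, COL1A1, SPARC, CDH2 and ALPL) while COL1A2 and RUNX2 did not, and the list summed to 1488 to 1653 FPKM in Lv_LINC00673 and 1149 to 1251 FPKM in Lv_NC. VIM carried most of that sum (1377 ± 76.2 FPKM in Lv_LINC00673 and 998 ± 53.4 FPKM in Lv_NC), and the markers went both ways, with VIM, CDH2, ALPL and RUNX2 called higher and SPARC called lower (128 ± 5.03 FPKM in Lv_LINC00673 and 147 ± 3.64 FPKM in Lv_NC). All 4 blood and 3 endothelial markers were below 1 FPKM, while 1 epithelial marker (EPCAM) and 1 neural marker (RBFOX3) were above it. The part of these differences in the results was not tested, and in bulk RNA fewer cells of a type and less RNA per cell cannot be told apart.

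In the fit over the whole table, 6 of the 10 phosphatase genes were called lower in Lv_LINC00673 (adjusted p under 0.05, edgeR quasi-likelihood test with Benjamini-Hochberg adjustment over all 21933 genes): DUSP1, DUSP2, DUSP5, DUSP7, DUSP8 and DUSP10. None was called higher, and none was higher at an unadjusted p under 0.05 or by DESeq2. Numbered copy rows of DUSP8 and DUSP16 are not counted here and are described below. Of all genes tested, 12.5% were called lower and 14.3% higher. The same 6 genes had CPM values that did not overlap between the groups, as 21.4% of all genes tested did in the lower direction. No member was higher without overlap, beside 23.7% of all genes tested. Because the genes were proposed from this comparison, nothing is read from these counts. The median log2 fold change of the 10 genes was -0.71, beside 0.05 over all genes tested, and with the GC and length offset it was -0.43 beside 0.06. Scaling by library totals alone raised the median of all genes by 0.17, to 0.22.

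In RefSeq GRCh38.p14 the genes called lower lie at chr5:172768096-172771195 (DUSP1, minus strand), chr2:96143169-96145440 (DUSP2, minus), chr10:110497907-110511533 (DUSP5, plus), chr3:52048919-52056571 (DUSP7, minus), chr11:1554051-1572848 (DUSP8, minus) and chr1:221701424-221742089 (DUSP10, minus). DUSP4 lies on chromosome 8, DUSP6 and DUSP16 on chromosome 12 and DUSP9 on chromosome X. The GC content of the longest annotated transcript was highest in DUSP9 (65.6%), DUSP8 (64.6%) and DUSP2 (63.9%), intermediate in DUSP7 (59.2%), DUSP5 (55.9%) and DUSP1 (55.1%), and lowest in DUSP10 (45.6%) and DUSP6 (46.7%).

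**Figure D1:**
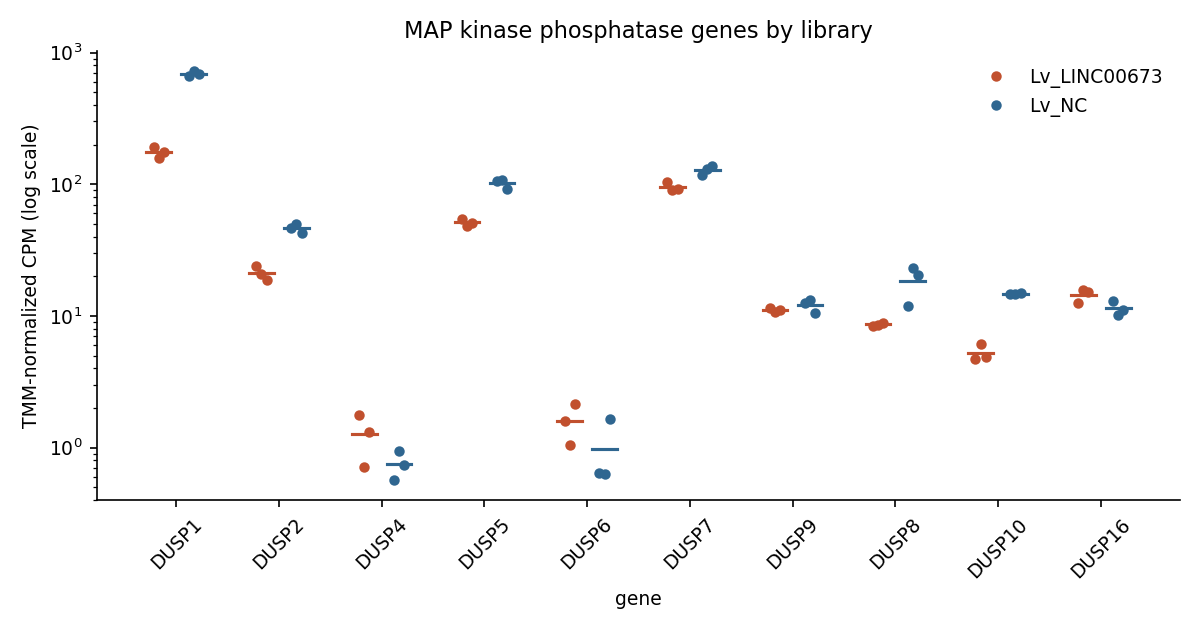
TMM-normalized CPM (log scale) of the 10 MAP kinase phosphatase genes, with a point for each library and a bar at the mean of 3 libraries; Lv_LINC00673 stands left of Lv_NC for each gene. DUSP1 lies between 159 and 192 CPM in Lv_LINC00673, below the 668 to 723 CPM of Lv_NC, while the points of DUSP4, DUSP6, DUSP9 and DUSP16 overlap between groups.

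DUSP1, an immediate early gene whose nuclear product acts on p38, JNK and ERK, was the most abundant of the group and differed most. Its read counts were 14027, 10661 and 11906 in Lv_LINC00673 libraries 1 to 3, against 51719, 58570 and 50343 in Lv_NC libraries 1 to 3. On the CPM scale these were 192, 159 and 175 in Lv_LINC00673 and 668, 723 and 690 in Lv_NC. Every Lv_LINC00673 library lay well below every Lv_NC library, and the libraries of each group lay close to each other. The means were 175 ± 16.2 CPM in Lv_LINC00673 and 694 ± 27.5 CPM in Lv_NC (SD, n = 3 each), which put DUSP1 at 25.3% of its Lv_NC level (95% interval 21.8 to 29.2%). This is a log2 fold change of -1.99 (SE 0.09), or -1.63 with the GC and length offset. Among 15932 genes with a mean of at least 1 CPM, 18 had a lower log2 fold change than DUSP1.

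DUSP2 encodes an inducible nuclear phosphatase best known from activated immune cells. It had 23.9, 20.8 and 18.7 CPM in Lv_LINC00673, against 46.5, 49.9 and 43.0 CPM in Lv_NC. The groups did not overlap, and the highest Lv_LINC00673 library remained well below the lowest Lv_NC library. The mean was 21.1 ± 2.59 CPM in Lv_LINC00673 and 46.5 ± 3.48 CPM in Lv_NC. The log2 fold change was -1.14 (SE 0.12), a level of 45.5% of that in Lv_NC, and the offset moved the log2 fold change to -0.76.

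DUSP5 encodes a nuclear phosphatase selective for ERK. It had 54.9, 48.3 and 50.7 CPM in Lv_LINC00673, against 105, 107 and 92.4 CPM in Lv_NC. The groups were again apart. Its mean level was 51.3 ± 3.32 CPM in Lv_LINC00673 and 102 ± 8.03 CPM in Lv_NC, or 50.5% of that in Lv_NC. Its log2 fold change was -0.99 (SE 0.10), and with the offset it was -0.67. DUSP5-DT, an RNA transcribed divergently from the DUSP5 locus and picked out after its values were seen, had counts of 178, 138 and 136 in Lv_LINC00673 and 341, 338 and 282 in Lv_NC, a log2 fold change of -0.94 (SE 0.18).

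DUSP4, whose nuclear product acts on ERK and JNK, had few reads in every library. Its counts were 129, 48 and 90 in Lv_LINC00673 and 44, 76 and 54 in Lv_NC. The ranges overlapped, and library 2 of Lv_LINC00673 was as low as the Lv_NC libraries. The log2 fold change of 0.76 had a 95% interval from -0.10 to 1.62 and was 0.74 with the offset. With this spread between libraries, a difference could not be resolved in either direction.

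DUSP7, a cytoplasmic ERK phosphatase, had 104, 90.0 and 91.4 CPM in Lv_LINC00673, against 118, 130 and 138 CPM in Lv_NC. The groups did not overlap, yet the gap between them was narrow. DUSP7 averaged 95.1 ± 7.71 CPM in Lv_LINC00673 and 129 ± 9.83 CPM in Lv_NC, with a log2 fold change of -0.43 (SE 0.10) and a level of 74.0% of that in Lv_NC. With the GC and length offset the log2 fold change was -0.18 and DUSP7 was no longer called. It was also not called when Lv_LINC00673 library 2 (-0.41), Lv_LINC00673 library 3 (-0.42) or Lv_NC library 3 (-0.39) was left out, nor in the limma fits on FPKM (-0.26 to -0.27).

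DUSP6 encodes an ERK phosphatase often used as a readout of ERK activity, and in these libraries its level was low. Its counts were 117, 70 and 145 in Lv_LINC00673, against 50, 51 and 120 in Lv_NC. Lv_NC library 3 reached into the range of Lv_LINC00673, and the other 2 Lv_NC libraries lay below it. The log2 fold change was 0.71 with a 95% interval from -0.29 to 1.71, or 0.63 with the offset. It ranged over 0.43 to 1.31 when each library was left out, lowest without Lv_LINC00673 library 3, at 0.48 and 0.47 without Lv_NC libraries 1 and 2 and highest without Lv_NC library 3, and was not called in any of these. DUSP9, an ERK phosphatase with roles in placenta, had 11.6, 10.7 and 11.0 CPM in Lv_LINC00673 and 12.5, 13.3 and 10.5 CPM in Lv_NC. These ranges overlapped. Its log2 fold change of -0.12 (95% interval -0.45 to 0.21) turned to 0.04 with library totals and to 0.16 with the GC and length offset, so no direction is given.

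Among the phosphatases that prefer JNK and p38, DUSP10 was lower, at 5.23 ± 0.747 CPM in Lv_LINC00673 and 14.7 ± 0.127 CPM in Lv_NC. It had counts of 346, 408 and 333 in Lv_LINC00673 and 1126, 1193 and 1079 in Lv_NC, or 4.73, 6.09 and 4.88 CPM in Lv_LINC00673 and 14.5, 14.7 and 14.8 CPM in Lv_NC. On the CPM scale the Lv_NC libraries were almost equal, and all Lv_LINC00673 libraries lay far below them. On the FPKM scale the SDs were closer, with 2.02 ± 0.347 in Lv_LINC00673 and 5.04 ± 0.299 in Lv_NC. DUSP10 stood at 35.6% of its Lv_NC level (95% interval 27.9 to 45.5%), with a log2 fold change of -1.49 (SE 0.15). The offset hardly moved that value (-1.50).

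DUSP8, a JNK and p38 phosphatase studied mainly in brain and heart, had 8.41, 8.51 and 8.89 CPM in Lv_LINC00673, against 11.9, 23.1 and 20.5 CPM in Lv_NC. The Lv_LINC00673 libraries were nearly equal, whereas Lv_NC library 1 lay nearer to them than to the other 2 Lv_NC libraries. The log2 fold change was -1.10 (SE 0.23), or -0.98 with the offset. Without Lv_NC library 3 it was -1.03 and was not called, nor was it called on FPKM without a filter (-0.66). The table holds 3 rows for this symbol, the plain one and 2 numbered copies, and reads may have been split between them. The log2 fold change was -0.56 for the first copy, -0.42 for the second and -0.76 for the sum of the 3 rows. The second copy overlapped between the groups and was not called (edgeR adjusted p = 0.213). The summed counts were 1832, 1435 and 1514 in Lv_LINC00673 and 2753, 3536 and 2685 in Lv_NC. In the sum Lv_NC library 1 lay close to Lv_NC library 3, unlike in the plain row. How reads were divided between the rows was not tested. In the annotation DUSP8 overlaps KRTAP5-AS1, which had 2 reads in Lv_LINC00673 library 2, 4 reads in Lv_NC library 2 and 0 in the others. DUSP6 and DUSP7 overlap POC1B-DUSP6 and LOC124906238, and DUSP8 also overlaps LOC124902608; these were not matched to rows of the table.

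DUSP16, a JNK phosphatase, had 12.5, 15.7 and 15.1 CPM in Lv_LINC00673, against 13.1, 10.2 and 11.0 CPM in Lv_NC. The groups overlapped through Lv_LINC00673 library 1 and Lv_NC library 1. In the edgeR fit the log2 fold change was 0.34 (95% interval -0.02 to 0.70), not called, or 0.19 with the offset. On the deposited FPKM scale its values were 2.21, 2.45 and 2.83 in Lv_LINC00673 and 2.19, 1.36 and 1.51 in Lv_NC, which do not overlap but nearly touch. Its 1 numbered copy gave 0.36, close to the value of the plain row.

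**Figure D2:**
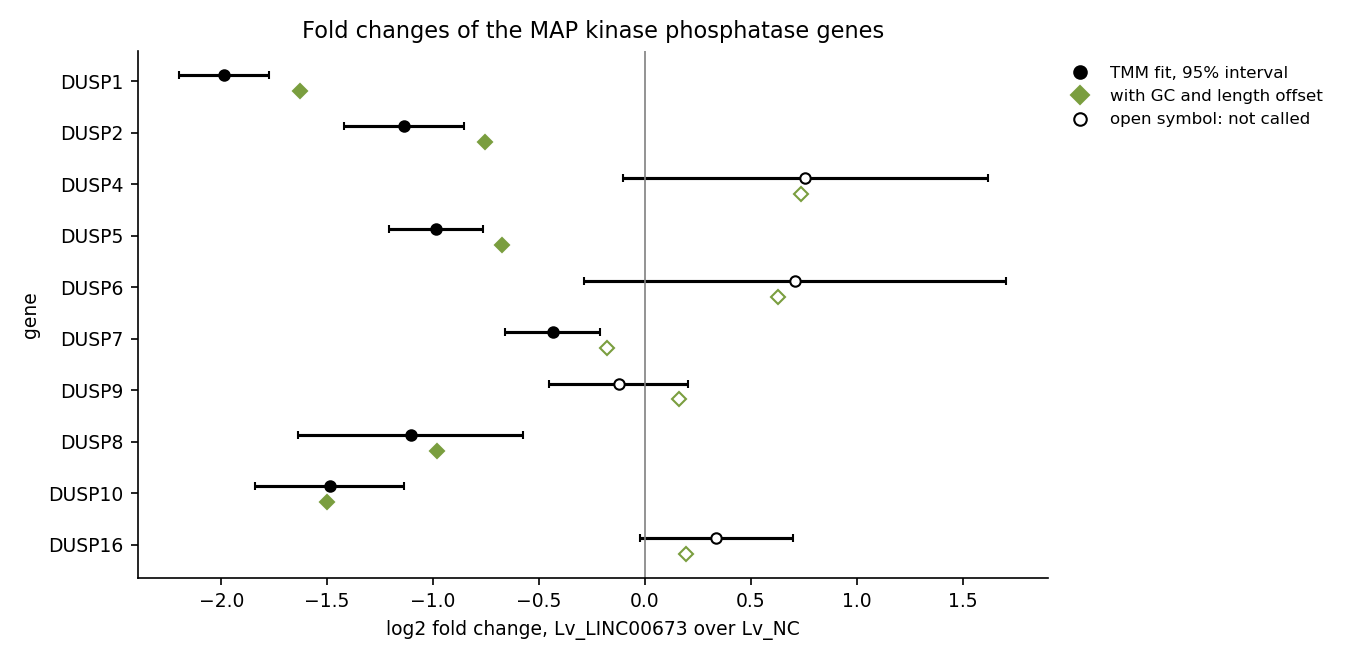
Log2 fold change, Lv_LINC00673 over Lv_NC, of the 10 genes: black circles are the edgeR fit with its 95% interval, green diamonds the fit with a GC and length offset, and open symbols were not called. DUSP1 lies at -1.99 and at -1.63 with the offset, DUSP7 loses its call with the offset, and DUSP9 lies on opposite sides of 0 in the fits.

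FPKM, which is scaled by gene length, allowed the levels of different genes to be compared. In Lv_LINC00673 the order of mean FPKM was DUSP1 (88.5 ± 5.81), DUSP7 (28.8 ± 1.53), DUSP5 (21.1 ± 0.777), DUSP2 (12.7 ± 1.27) and DUSP9 (4.66 ± 0.0838), each above the range of the next. DUSP16, DUSP10 and DUSP8 followed at 1.75 to 2.49 FPKM, with ranges that overlapped between neighbours. In Lv_NC the order was DUSP1 (313 ± 7.86), then DUSP5 (37.3 ± 2.79) and DUSP7 (34.8 ± 2.57) with overlapping ranges, then DUSP2 (24.9 ± 1.62). DUSP10, DUSP9 and DUSP8 came next at 3.45 to 5.04 FPKM, again with overlapping neighbours, and DUSP16 lay below them at 1.69 FPKM. DUSP6 and DUSP4 were last in both groups, at 0.444 and 0.198 FPKM in Lv_LINC00673 and 0.243 and 0.105 FPKM in Lv_NC. This order uses the plain rows only, and the places of DUSP8 and DUSP16 depend on it. With their numbered copies added, DUSP8 had 4.76 ± 0.289 FPKM in Lv_LINC00673 and 7.25 ± 0.678 FPKM in Lv_NC, and DUSP16 had 4.86 ± 0.583 FPKM in Lv_LINC00673 and 3.33 ± 0.647 FPKM in Lv_NC. Both means then lay above that of DUSP9 in Lv_LINC00673, and in Lv_NC that of DUSP8 lay above that of DUSP10.

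Summed over the 10 genes, the FPKM was 163 ± 8.24 in Lv_LINC00673 and 426 ± 10.1 in Lv_NC (SD, n = 3 each), or 168 ± 8.24 in Lv_LINC00673 and 431 ± 9.67 in Lv_NC with the numbered copies. DUSP1 made up most of this sum, 54.4 ± 1.10% in Lv_LINC00673 and 73.7 ± 0.35% in Lv_NC. The other 9 genes together had 74.1 ± 2.88 FPKM in Lv_LINC00673 and 112 ± 2.74 FPKM in Lv_NC. The share of DUSP7 in the sum was 17.7 ± 0.35% in Lv_LINC00673 and 8.18 ± 0.588% in Lv_NC, and the ranges were apart. Its own FPKM was nevertheless lower in Lv_LINC00673 (28.8 ± 1.53) than in Lv_NC (34.8 ± 2.57). The shares of DUSP2, DUSP4, DUSP5, DUSP6, DUSP8, DUSP9 and DUSP16 were likewise higher in Lv_LINC00673 without overlap, while that of DUSP10 overlapped. A larger share of a smaller sum does not by itself mean a higher level.

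**Figure D3:**
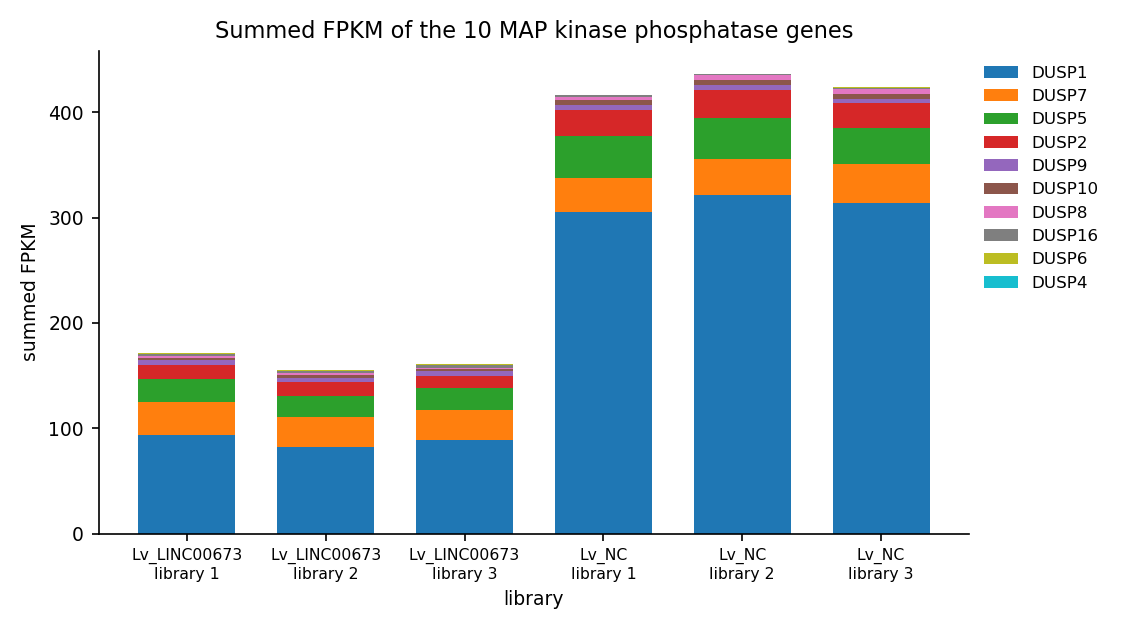
Deposited FPKM of the 10 genes stacked for each library, Lv_LINC00673 libraries left of Lv_NC libraries. The stacks reach 155 to 171 FPKM in Lv_LINC00673 and 417 to 436 FPKM in Lv_NC, and DUSP1 is the largest block in all 6 libraries.

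The promoter sequences of the genes called lower with the largest differences are shown because DUSP1 is known to be induced in part through cAMP response elements, short sites bound by CREB and ATF proteins, close to its start. RefSeq promoter windows (GRCh38.p14, 250 bases before and 50 after an annotated transcription start) were found for 8 of the 10 genes, with 2 starts each for DUSP9 and DUSP10. The start used lies at the outer end of the gene as given above, except for DUSP8, whose only start in the table lies 577 bases inside it, and for the second starts of DUSP9 and DUSP10. The windows below are on the minus strand, read 5′ to 3′, at chr5:172771146-172771445 for DUSP1, chr2:96145391-96145690 for DUSP2, chr11:1572222-1572521 for DUSP8 and chr1:221742040-221742339 for the first start of DUSP10. Capitals mark TGACGTCA and its shorter form TGACG on either strand, and TATAAA.
DUSP1: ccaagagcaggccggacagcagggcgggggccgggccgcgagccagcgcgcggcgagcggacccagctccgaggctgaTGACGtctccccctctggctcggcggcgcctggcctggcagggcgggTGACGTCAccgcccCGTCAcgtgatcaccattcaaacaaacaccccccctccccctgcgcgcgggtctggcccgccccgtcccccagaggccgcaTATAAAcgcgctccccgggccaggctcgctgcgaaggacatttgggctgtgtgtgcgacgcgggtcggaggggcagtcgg
DUSP8: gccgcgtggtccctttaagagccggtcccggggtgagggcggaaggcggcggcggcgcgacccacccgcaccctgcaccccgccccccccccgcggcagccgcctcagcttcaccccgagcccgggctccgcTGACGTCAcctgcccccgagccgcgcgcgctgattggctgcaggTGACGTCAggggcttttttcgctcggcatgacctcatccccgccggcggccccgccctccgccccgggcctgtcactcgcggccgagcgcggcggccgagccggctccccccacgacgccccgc
DUSP2: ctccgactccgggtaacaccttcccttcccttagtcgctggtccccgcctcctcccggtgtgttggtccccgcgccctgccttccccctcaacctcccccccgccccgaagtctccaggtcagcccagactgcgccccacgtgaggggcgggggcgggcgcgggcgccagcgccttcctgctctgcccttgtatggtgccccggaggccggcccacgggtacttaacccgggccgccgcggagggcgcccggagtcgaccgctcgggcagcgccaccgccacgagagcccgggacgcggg
DUSP10: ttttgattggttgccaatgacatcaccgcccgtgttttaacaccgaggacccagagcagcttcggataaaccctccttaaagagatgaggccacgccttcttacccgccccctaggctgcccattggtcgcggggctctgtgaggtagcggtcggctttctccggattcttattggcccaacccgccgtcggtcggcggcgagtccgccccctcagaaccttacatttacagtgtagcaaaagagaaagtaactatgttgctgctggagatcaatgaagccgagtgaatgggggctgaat

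The full element TGACGTCA was found once in the DUSP1 window, with its left end at -125 from the start, and at -118 and -74 in the DUSP8 window. Because the DUSP8 start is internal, both of its elements lie inside the DUSP8 gene as annotated. It was in none of the other windows of the group. Of 35116 promoter windows of the same length, 1.848% hold it at least once and 0.0598% hold 2 or more. The shorter form TGACG on either strand occurred 4 times in DUSP1, 4 times in DUSP8 and 1 time at the second start of DUSP10, where each full element counts as a pair of overlapping short forms. It is held by 24.55% of all windows. DUSP1 alone held TATAAA, at -30, beside 11.53% of all windows. The E-box CACGTG was found in DUSP1 at -108 and in DUSP2 at -113, beside 7.256% of all windows. The DUSP1 E-box overlaps the TGACG match at -111. The first start of DUSP10 had CCAAT 4 times, beside 34.61% of windows with at least 1. The AP-1 site TGANTCA and the CArG box were found in none of the windows of the group, beside 7.709% and 1.293% of all windows. Both strands were searched for every motif, and a match is a string of letters, not a measured binding site.

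**Figure D4:**
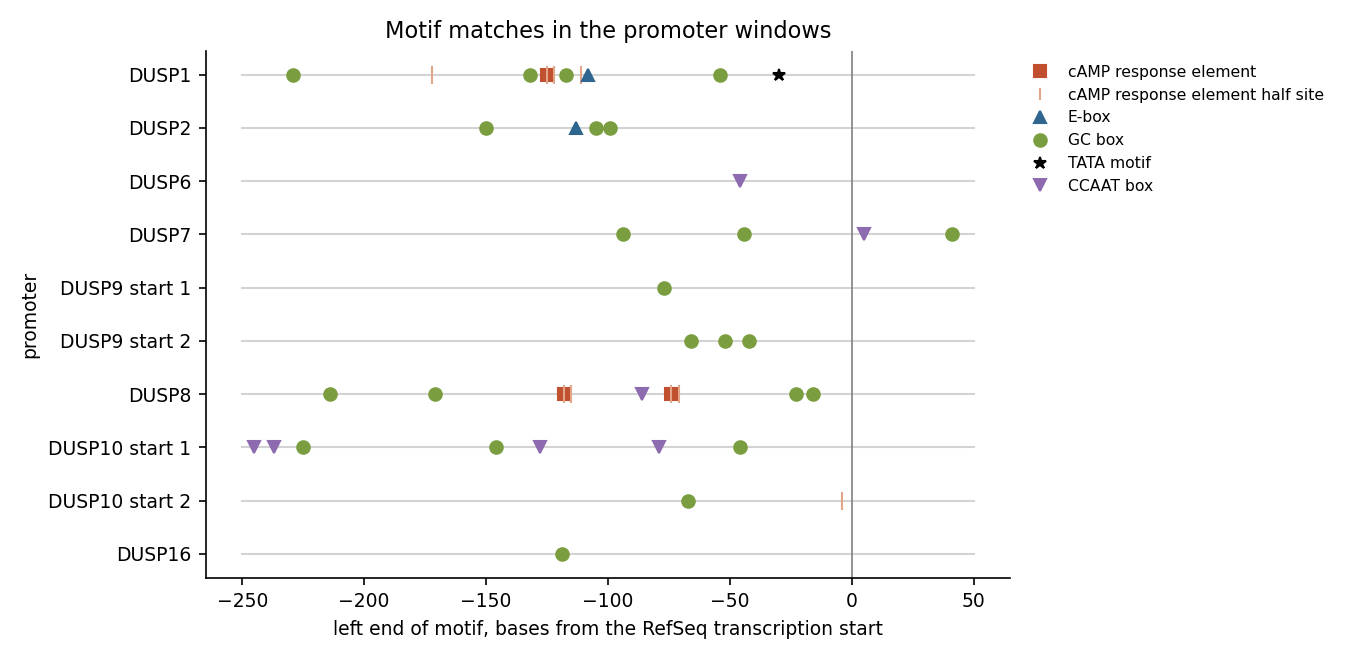
Left ends of motif matches in the RefSeq promoter windows of 8 genes, in bases from the annotated transcription start (0), with 1 line per start and 1 symbol per motif. Full cAMP response elements appear at -125 in DUSP1 and at -118 and -74 in DUSP8, and in no other window.

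The genes differed in AU-rich elements as well, the ATTTA motifs through which many inducible mRNAs are kept short-lived. In the longest GENCODE v29 3′UTR, ATTTA occurred 4 times in DUSP1, 3 times in DUSP2, 3 times in DUSP10 and 4 times in DUSP8, and it was absent from DUSP5 and DUSP7. Per kilobase this was 5.93 in DUSP1, 4.55 in DUSP2, 3.03 in DUSP10 and 1.61 in DUSP8, beside a median of 1.52 over 18802 genes. Among the genes not called, DUSP4 had 6 (1.51 per kilobase), DUSP16 had 5 (1.90), and DUSP6 and DUSP9 had 1 each. The longer form TTATTTATT, which 8.30% of genes hold, occurred in DUSP1, DUSP4 and DUSP8; the DUSP1 and DUSP8 sites are printed with the form in capitals.
DUSP1 site 1: gctggtccTTATTTATTtaacttca
DUSP1 site 2: aatataccTTATTTATTtttgtgta
DUSP8 site: tcgattttTTATTTATTtaagctgt

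Among 15469 genes with a symbol and a mean of at least 1 CPM, the profile over the 6 libraries most like that of DUSP1 was that of LOC102723393, with a root mean square difference of 0.10 on the centred log2 CPM scale. The next 4 were rows of HSPA1B, a heat shock gene whose numbered rows are copies of 1 gene and can share reads, at 0.167, 0.180, 0.181 and 0.187. Within the phosphatase group, DUSP10 was the nearest to DUSP1, at 0.312. The closest pair was DUSP2 and DUSP5, at 0.112, followed by DUSP7 and DUSP9, at 0.220. These distances describe likeness over 6 libraries only, and they depend on the same difference between the groups on which the genes were selected. The log2 fold change was -1.98 for LOC102723393 and -1.63 to -1.66 for the HSPA1B rows, beside -1.99 for DUSP1. Shared regulation was not tested.

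Genes on other steps of the MAP kinase pathways were counted from lists, with the calls of the same whole-table fit, beside which 12.5% of all genes tested were called lower and 14.3% higher. Several of the shares below are near that background, and nothing particular to a list is read from them. The list of atypical DUSPs, which includes STYX, STYXL1 and STYXL2, had 12 tested genes. Of these, 4 were lower and none higher at an unadjusted p under 0.05 in edgeR. DESeq2 called 3 lower and none higher. After adjustment edgeR called 1 lower and none higher. The 1 was DUSP14, at 28.4 ± 2.24 CPM in Lv_LINC00673 and 43.1 ± 1.79 CPM in Lv_NC (log2 fold change -0.60, edgeR adjusted p = 0.0068, or -0.38 with the offset). Their median log2 fold change was -0.18, or -0.08 with the offset. Of 10 other phosphatases that act on MAP kinases, 2 were called lower and none higher (DESeq2 called 2 lower and 1 higher, and 3 were lower and 1 higher at an unadjusted p under 0.05), with a median of 0.05 that was -0.21 with the offset. The count depends on the scaling: it was 0 lower and 1 higher with library totals, 0 in either direction on FPKM, and 3 lower with the offset. The 2 genes called in the edgeR fit were subunits of the phosphatase PP2A, PPP2CB (-0.40) and PPP2R1A (-0.33, or -0.30 with the offset). With library totals they had -0.23 and -0.17, and neither was called there or on FPKM. PPP2CB lost its call without Lv_LINC00673 library 3 (-0.44) or Lv_NC library 3 (-0.39) and with the offset (-0.20). PPP2R1A lost its call without any of Lv_LINC00673 libraries 2 and 3 and Lv_NC libraries 2 and 3 (-0.30 to -0.36).

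Of the MAP kinases themselves, 2 of 12 tested genes were called higher and none lower (3 were lower at an unadjusted p under 0.05 and 1 by DESeq2). MAPK6, an atypical MAP kinase, had 52.1 ± 11.8 CPM in Lv_LINC00673 and 25.1 ± 6.36 CPM in Lv_NC, a log2 fold change of 1.05 that was 0.47 with the offset. Among MAP kinase kinases and RAF kinases, 4 of 9 were called lower and 2 higher, with a median of -0.34, or -0.11 with the offset. The lower calls numbered 2 with the offset, and there were 2 lower calls and 1 higher call without Lv_LINC00673 library 2 or 3 or without Lv_NC library 2 or 3. MAP2K3, a p38 activator, was lower (-0.70, or -0.35 with the offset) and MAP2K4, a JNK activator, was higher (0.99, or 0.66 with the offset). BRAF was called higher at 0.64 but had -0.13 with the offset. Its call was also lost without any of Lv_LINC00673 libraries 2 and 3 and Lv_NC libraries 2 and 3 (0.54 to 0.67).

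The remaining ERK feedback and output genes were called in both directions, 3 of 13 lower and 4 higher, with a median of 0.07 that was -0.02 with the offset. Higher calls numbered 2 without Lv_LINC00673 library 2 or Lv_NC library 3 and 1 without Lv_LINC00673 library 3. ETV1, an ERK-responsive transcription factor, was at 3.87 ± 0.112 CPM in Lv_LINC00673 and 1.26 ± 0.239 CPM in Lv_NC (log2 fold change 1.62, or 0.96 with the offset). EPHA4 (1.32, or 0.97 with the offset) lost its call without Lv_LINC00673 library 3 (1.19) and on FPKM without a filter (0.32). SPRY3 (1.26), at under 1 CPM in every library, lost it with the offset (0.63) and when any library other than Lv_NC library 1 was left out (1.02 to 1.30). Of 27 immediate early genes, which are switched on within minutes of a stimulus, 18 were called lower and 1, KLF10 (0.60), higher. With the offset 15 were called lower and 1 higher, beside 14.8% and 15.7% of all genes. Their median was -0.56 beside -0.71 for the phosphatase genes, and -0.42 beside -0.43 with the offset. Without Lv_LINC00673 library 2, Lv_LINC00673 library 3 or Lv_NC library 3, 12 were called lower. The lower calls numbered 15 with library totals and 8 with a replicate block. On log2(FPKM + 1) they numbered 12 with a filter and 9 without. PPP1R15A, which resets translation after stress, and NR4A1, a nuclear receptor, were both called lower (-1.34 for PPP1R15A and -1.27 for NR4A1, or -0.99 and -1.14 with the offset). EGR4 (-1.46, or -1.18 with the offset), a low-count transcription factor gene, lost its call without any of Lv_LINC00673 libraries 2 and 3 and Lv_NC libraries 2 and 3 (-1.30 to -1.48), and on FPKM (-0.28 to -0.92). This list was known to be lower from earlier work on the same libraries and is no independent evidence.

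**Figure D5:**
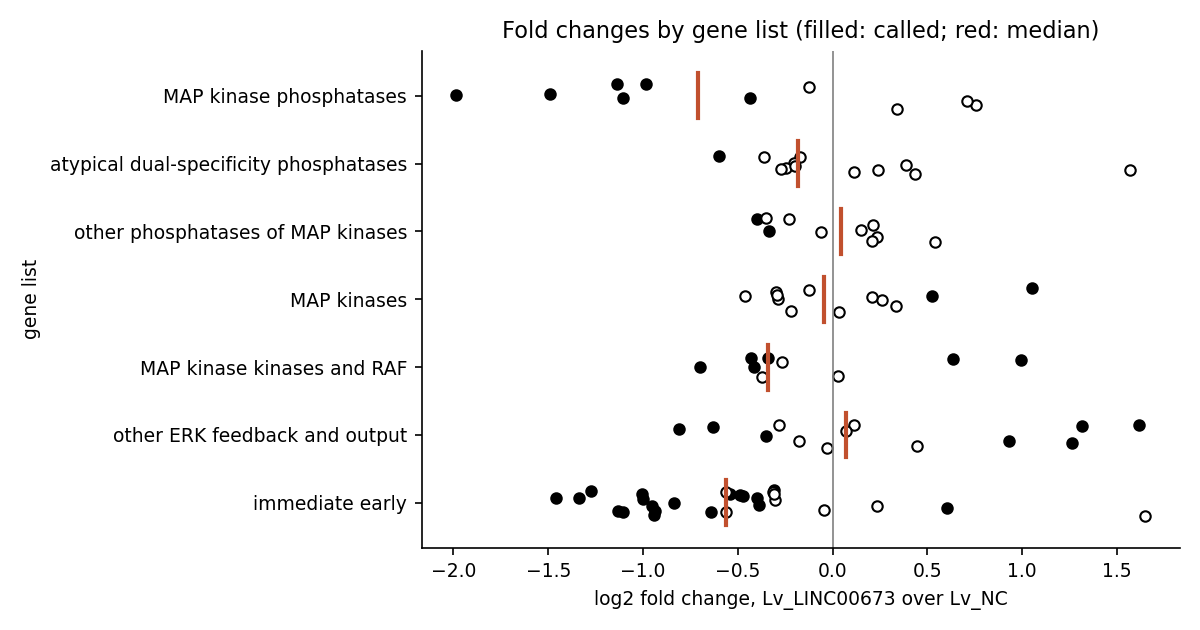
Log2 fold change, Lv_LINC00673 over Lv_NC, of each tested gene by list, with called genes filled, others open and the list median as a red bar. The medians lie at -0.71 for the MAP kinase phosphatases, -0.56 for the immediate early genes and between -0.34 and 0.07 for the other lists.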

How the data were processed

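The authors deposited a table of read counts per gene, whole numbers that were not normalized, and FPKM values in a second table, each with 1 column per library (0 columns unmatched). The genome build was hg38, per the submitters' processing notes; total RNA and a TruSeq RNA kit were used, per the labels' protocols. Not given in the sources used here are the aligner, counter, annotation, strand setting and FPKM length model. Reads of overlapping or antisense genes may not be told apart.

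Libraries were grouped by title, Lv_LINC00673 (n = 3) and Lv_NC (n = 3). After filterByExpr and TMM scaling, a robust quasi-likelihood model was fitted in edgeR 4.0.16 (two-sided test, R 4.3.3). Benjamini-Hochberg adjustment ran over 21933 genes, with a threshold of 0.05. Gene rows without a symbol stayed in. Each adjusted p is from that fit unless another tool is named. SE is the log2 fold change over the square root of F, and intervals are at 95%. Levels are CPM after TMM scaling, mean ± SD; FPKM was used only to compare genes and as an alternative. GC content and length came from the longest GENCODE v29 transcript, and an offset was fitted per library over 18122 genes. Coordinates are 1-based, from RefSeq GRCh38.p14. The fit was tested on simulated data.

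The 10 genes, the lists (atypical DUSPs, other phosphatases, MAP kinases, MAP kinase kinases and RAF, other ERK feedback and output, immediate early) and the cell type markers were chosen with earlier results of these data known. Named genes are the 10, LINC00673, overlapping genes, the 5 genes with a symbol and at least 1 CPM nearest to DUSP1, and up to 3 called genes per list with the largest absolute log2 fold change; DUSP5-DT and KLF10 were named after their values were seen. Part of the genes that this rule takes are not reported here. Alternatives were DESeq2 1.42.0, RLE, upper-quartile and library-total scaling, 2 other filters, limma-voom (limma 3.58.1), a replicate block, the offset with and without the block, limma on log2(FPKM + 1), log2(FPKM + 0.1) and log2(FPKM + 1) without a filter, leaving out each library, and summing numbered copies of a gene, the last chosen after seeing the data.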

Additional observations from a re-analysis of the deposited data

How the results depend on the processing

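The number of phosphatase genes called lower, 6, was 4 to 6 under 20 alternatives, with 4 without Lv_NC library 3, and none was called higher under any of them. DUSP1, DUSP2, DUSP5 and DUSP10 were called under all 20. DUSP9 changed sign with library totals (0.043), with the GC and length offset (0.16, and 0.16 with the replicate block as well), on log2(FPKM + 1) (0.040 with and 0.040 without a filter) and on log2(FPKM + 0.1) (0.049). BRAF changed sign with the offset (-0.13, and -0.13 with the replicate block as well). The cause was not tested. No pairing by replicate number was seen: same-numbered libraries had correlations of their deviations of -0.42, -0.36 and 0.04 over 12348 genes. Lv_LINC00673 library 1 with Lv_NC library 2 had 0.45, and Lv_LINC00673 library 2 with Lv_NC library 1 had 0.35. The remaining differently numbered pairs lay between -0.14 and 0.11. A batch shared by libraries of both groups was not tested. With the replicate block, 4 phosphatase genes were called lower, without DUSP7 (-0.44) and DUSP8 (-1.05), 12 list genes were called in place of 37, and 1208 of all genes in place of 5883, or 3467 with the block and the offset. List genes called were 24 on log2(FPKM + 1), 24 on log2(FPKM + 0.1) and 18 on log2(FPKM + 1) without a filter, where all genes called were 2578. Leaving out each library gave 21 to 42 list genes and 2716 to 6490 genes in all; list genes called were 23 without Lv_LINC00673 library 2, 21 without Lv_LINC00673 library 3 and 22 without Lv_NC library 3, and all genes called were 2716, 2832 and 2913 without these and 3631 without Lv_NC library 2. Of 493 alternative values for 25 single genes, 416 kept direction and side of the threshold, 68 lost the call, 1 gained it and 8 changed sign. The counts of DUSP4 and DUSP6, under 150 in every library, limit what can be said of them.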
